A study of Mus musculus with 16 samples.

Results

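The response of wild-type large peritoneal macrophages to IL-4c was measured on 5 of the 16 arrays of the series, chosen by their titles: 2 arrays of IL-4c-stimulated Bhlhe40WT LPM and 3 arrays of naive Bhlhe40WT LPM. LPM are large peritoneal macrophages, the larger of the resident macrophage types in the abdominal cavity, and Bhlhe40WT is the name the series gives to Bhlhe40+/+ mice. All 5 samples were sorted from peritoneal lavage of male C57BL/6 mice with both copies of Bhlhe40, a transcriptional repressor. IL-4c is the usual name for IL-4 bound to an antibody that prolongs its life in the animal. The treated mice had IL-4c injections on days 0 and 2 and were killed on day 4, and the naive mice are labelled as untreated, so that effects of the injections themselves and of IL-4c cannot be told apart. The labels give no dose, route or age. A matching set of 5 arrays from Bhlhe40KO mice (Bhlhe40-/-, 3 naive and 2 IL-4c) is used further down to ask which parts of the response differed without Bhlhe40. The remaining arrays hold alveolar macrophages of both genotypes and IL-4c-stimulated LPM of Bhlhe40LysM mice (LysM-Cre+ Bhlhe40fl/fl, in which Cre is driven from the lysozyme M gene of myeloid cells). They enter the shared variance estimate.

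IL-4 acts on macrophages through its receptor alpha chain, which signals through JAK kinases to the transcription factor STAT6. STAT6 switches on a set of genes known as alternative activation, among them arginase, chitinase-like proteins and lectins. In the pleural and peritoneal cavities the same cytokine is also known to make resident macrophages divide in place, which is how their number grows in worm infection. The gene groups below follow those roles: the receptor and its factors, the products of alternative activation, the machinery of division, metabolism, and the resident and inflammatory genes.

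The values are log2 signals of a one-colour Affymetrix gene array after RMA, with 1 probe set per gene, and a difference is IL-4c minus naive on that log2 scale. The 5 arrays had medians between 4.82 and 4.89, naive arrays correlated with each other at 0.994 to 0.995 and the IL-4c arrays at 0.992, while naive and IL-4c arrays correlated at 0.963 to 0.969 (Pearson's r over all probe sets, as a description). The highest signal on an array was 13.15 to 13.21 in the naive group and 13.67 on both IL-4c arrays; no processing batch is labelled, so a batch and the treatment cannot be told apart. The values carry no detection calls; signals below the level under which 95% of 1035 olfactory receptor probe sets fell (4.37 to 4.47 on these arrays) are called near background here. The labels do not say whether replicate arrays came from separate mice or from pools, so the p-values reflect array-to-array spread that may be technical, and so few arrays limit the precision. Of 9 tested LPM markers 0 rose and 5 fell, and their mean signal was 10.44 to 10.47 on the naive and 9.76 to 9.77 on the IL-4c arrays: Adgre1, a surface receptor of most tissue macrophages, read 11.55, 11.52 and 11.42 on the naive and 11.5 and 11.36 on the IL-4c arrays, and the peritoneal factor Gata6 read 8.92, 8.95 and 8.9 on the naive and 9.24 and 9.17 on the IL-4c arrays. The 5 that fell were Cd14 (-2.08), F5 (-1.76), Mertk (-0.86), Csf1r (-0.7) and Timd4 (-0.68), and the lowest signal of any of the 9 on any of the 5 arrays was 7.63 (Mertk), above the array medians.

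IL-4c and naive macrophages differed in a large share of their measured genes. Of 11634 tested genes, 4788 (41.2%) differed between IL-4c and naive arrays at an adjusted p under 0.05, 2560 (22.0%) of them higher and 2228 (19.2%) lower with IL-4c, and the median difference over all tested genes was 0.021. A difference of at least 2-fold was found for 704 genes that rose (6.05%) and 560 that fell (4.81%), and in each of these 1264 genes the IL-4c arrays lay wholly above or below the naive arrays. The rises reached further than the falls: 35 genes rose and 20 fell at least 8-fold, and 19 rose and 6 fell at least 16-fold. Of the 704 raised genes, 145 were below the array median on all naive arrays and 473 were above it on all of them. Of the 560 lowered genes, 111 ended below the array median on both IL-4c arrays and 420 stayed above it on both. The pair of IL-4c arrays differed by a median of 0.25 in the raised and 0.2 in the lowered genes, and by more than 1 in 18 raised and 11 lowered genes. Groups of arrays that do not overlap were common in the whole table (7589 genes, 65.2%), so non-overlap alone says little about a single gene. In the accounts of gene lists, a gene rose or fell if it passed the test, a list's remaining genes did not pass it, and counts are to be read against these shares of 22.0% and 19.2%.

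Among the 20 largest rises with a named gene were an eosinophil-type ribonuclease, lectins, chitinase-like proteins and several genes that read near background in naive cells. Rnase2a, a secreted ribonuclease of a family with close copies, read 2.71, 2.65 and 3.15 on the naive and 11.28 and 11.17 on the IL-4c arrays (log2 difference 8.39 ± 0.18 SE, adjusted p = 3.5e-14). Mgl2, the galactose lectin CD301b, read 5.47, 4.64 and 5.23 on the naive and 11.29 and 11.13 on the IL-4c arrays (log2 difference 6.1 ± 0.25 SE, adjusted p = 1.4e-10). Cst7, which encodes cystatin F, an inhibitor of lysosomal cathepsins, read 4.31, 4.36 and 3.95 on the naive and 9.82 and 10.09 on the IL-4c arrays (log2 difference 5.75 ± 0.24 SE, adjusted p = 1.7e-10). In these 3 genes the IL-4c arrays stood more than 5 log2 units above every naive array. Timd2, a receptor for ferritin, read 3.05, 3.38 and 3.29 on the naive and 8.46 and 8.9 on the IL-4c arrays, from near background, and Ucp1, the uncoupling protein of brown fat, read 4.62, 3.8 and 4.37 on the naive and 8.93 and 9.74 on the IL-4c arrays. Timp1, an inhibitor of metalloproteinases, stood out for the gap between its IL-4c arrays, at 8.75 and 7.24 against 3.41, 3.66 and 3.55 on the naive arrays. Further large rises were those of the kallikreins Klk1b11 and Klk9, Ly6a2, the membrane proteins Mall, Tmigd1 and Plp2, the carbonic anhydrase Car12, the potassium channel Kcnn4 and the stefin Stfa3, with log2 differences between 3.93 (Plp2) and 5.02 (Klk1b11). AA467197 left the naming rule by its numbered symbol and is added here because its rise was the second largest in the table, from 3.44, 3.28 and 3.4 to 11.11 and 10.95; its log2 difference was 7.66.

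The 20 largest falls with a named gene held chemokines, feedback regulators and receptors, taken up by group below, and a few genes outside the lists. Hp, which encodes haptoglobin, read 9.02, 8.8 and 9.2 on the naive and 5.43 and 5.58 on the IL-4c arrays, and Slc44a1, a choline transporter, read 8.98, 9.07 and 8.95 on the naive and 5.95 and 5.63 on the IL-4c arrays. Adgb, which encodes a globin-like protein, fell by 3.51 to 4.38 and 4.53, and Ms4a6c, a membrane protein of the MS4A family, fell by 3.62 to 3.79 and 3.6, near background. The small nucleolar RNA Snord82 fell by 3.11 and had 1 naive array, at 5.76, well below the others.

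**Figure D1:**
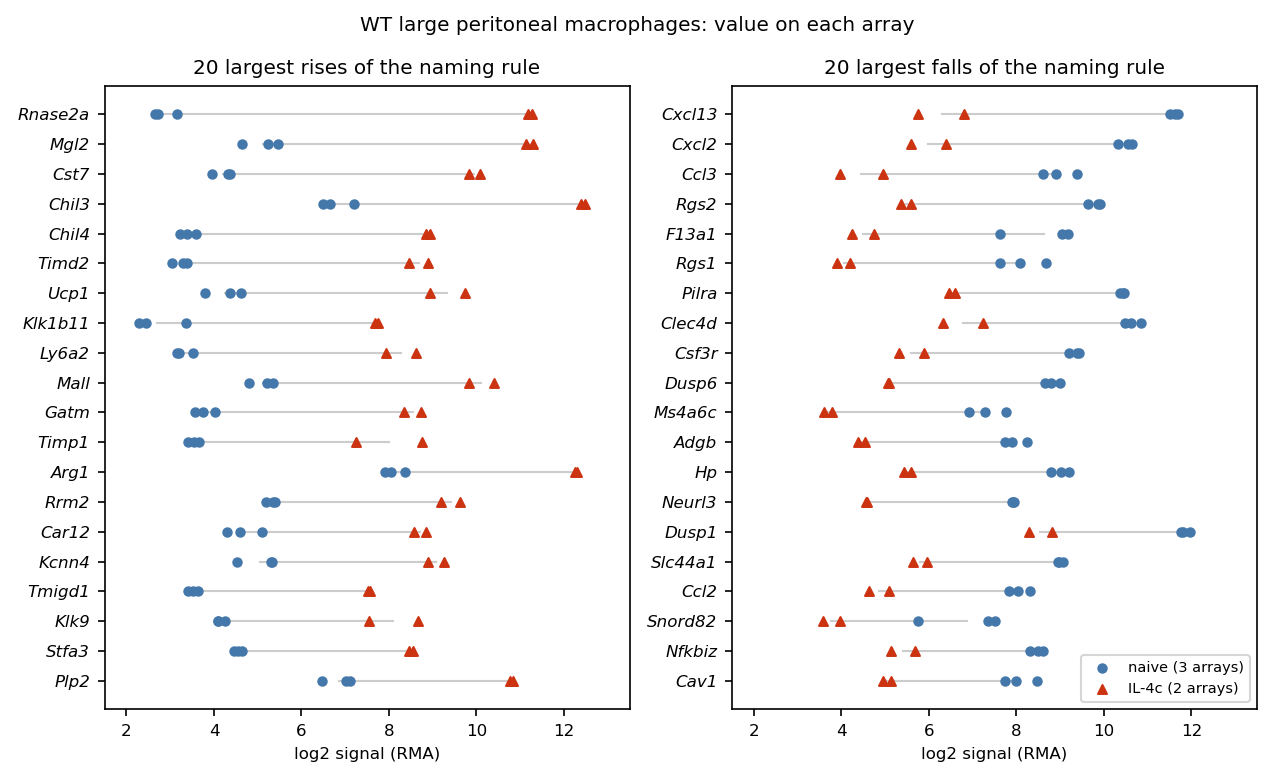
Log2 signal (RMA) on each array for the 20 largest rises (left) and falls (right) of the naming rule, with naive arrays as blue circles, IL-4c arrays as red triangles and a grey line between the group means. Rises such as Rnase2a, Timd2 and Chil4 start near background, while Cxcl13, Dusp1 and Cxcl2 start above 10, and in every gene shown the groups do not overlap.

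The receptor and its signalling parts moved little, and the called members of the list leaned down. Of the genes of the IL-4 receptor, STAT6 and their feedback, 3 of 14 tested genes rose and 5 fell (median difference -0.27). Il4ra, the receptor alpha chain, read 7.61, 7.38 and 7.59 on the naive and 7.03 and 7.32 on the IL-4c arrays and Stat6 read 8.46, 8.35 and 8.35 on the naive and 8.1 and 8.27 on the IL-4c arrays, with log2 differences of -0.35 and -0.2 that did not pass the test. The kinase gene Jak2 and Il13ra1, the partner chain of the type II receptor, fell by 0.8 and 0.8 log2 units, as did the phosphatase gene Ptpn6 (-0.64) and the STAT6 cofactor gene Parp14 (-0.69). The 3 genes of the list that rose were the feedback inhibitors Cish, Socs1 and Socs2. Cish read 4.95, 5.16 and 5.07 on the naive and 6.2 and 5.99 on the IL-4c arrays (1.03). Socs1 read 5.42, 5.13 and 5.44 on the naive and 6.1 and 6.22 on the IL-4c arrays (0.83). The rise of Socs2 was smaller (0.42). Among the transcription factors of alternative activation 6 of 17 tested genes rose and 0 fell (median difference 0.22). Klf4, a zinc-finger factor induced by STAT6, read 7.94, 7.4 and 7.29 on the naive and 9.17 and 9.65 on the IL-4c arrays, and Ppargc1b, a coactivator of mitochondrial genes, read 4.71, 4.7 and 5.03 on the naive and 6.44 and 6.3 on the IL-4c arrays. Nfil3 (1.4), Tfec (1.37), Batf3 (0.94) and Irf4 (0.82) also rose, while Pparg (0.22), Myc (0.28), Egr2 (-0.17) and Bhlhe40 itself (0.2) did not pass the test. Some of the smaller calls were lost with 1 array left out: Il13ra1 (-0.64, adjusted p = 0.077) and Ptpn6 (-0.42, adjusted p = 0.065) did not pass without IL-4c replicate 1, where 2 genes of the receptor list rose and 3 fell, and Parp14 (-0.52, adjusted p = 0.053) did not pass without IL-4c replicate 2. Socs2 did not pass without IL-4c replicate 1 or 2, without naive replicate 2, or with centring on the tested genes, the 5 arrays alone or the LPM arrays alone (0.26 to 0.42, adjusted p = 0.055 to 0.17).

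Secreted products of alternative activation ranged from the largest rise in the table to clear falls. For secreted products of alternative activation, 8 of 16 tested genes rose and 3 fell (median difference 0.38). The chitinase-like proteins Chil3 (Ym1) and Chil4 (Ym2) both rose: Chil3 read 6.66, 6.5 and 7.2 on the naive and 12.49 and 12.39 on the IL-4c arrays, and Chil4 read 3.38, 3.23 and 3.58 on the naive and 8.94 and 8.85 on the IL-4c arrays. The 2 genes are near-identical copies, so their probe sets may share signal. Retnla (RELM alpha), one of the best known products of this state, read 10.83, 11.48 and 11.45 on the naive and 12.09 and 11.81 on the IL-4c arrays, a rise of 0.7 ± 0.21 SE (adjusted p = 0.016) from a naive signal that was already high. Ccl8, a chemokine that attracts eosinophils and T cells, rose to 6.33 and 4.66 from 3.07, 3.15 and 3.2, with a wide gap between its IL-4c arrays. Igf1 (0.86) and Vegfa (0.69), growth factors, rose, but the matrix genes Fn1 (-0.78) and Tgfbi (-0.96) and the eotaxin-type chemokine Ccl24 (-0.91) fell. Of the chemokines often induced by IL-4, Ccl17 read 4.58, 4.37 and 4.38 on the naive and 4.66 and 4.4 on the IL-4c arrays and Ccl22 read 3.56, 3.62 and 4.14 on the naive and 3.96 and 3.68 on the IL-4c arrays, and neither passed the test. The list's lean to rises depended on 1 array: without IL-4c replicate 1, 4 of its genes rose and 3 fell. Several calls were lost under other settings. Vegfa did not pass without IL-4c replicate 1 or 2, without naive replicate 2 or 3, or with centring on the tested genes or no filter on dim probe sets (0.59 to 0.77, adjusted p = 0.05 to 0.18). Retnla did not pass without IL-4c replicate 1, or without naive replicate 1 (0.48 to 0.56, adjusted p = 0.077 to 0.14). Ccl8 did not pass without IL-4c replicate 1, or with an intensity trend with robust variance (1.52 to 2.35, adjusted p = 0.064 to 0.2). Ccl24 (-0.78, adjusted p = 0.076) lost its call without IL-4c replicate 2.

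Lectins and receptors moved in both directions. For receptors and lectins of alternative activation, 9 of 20 tested genes rose and 6 fell (median difference 0.37). Alongside Mgl2, the lectin genes Clec10a (CD301a; 3.16), Cd209d (3.24), Cd209e (1.58) and Mrc1 (the mannose receptor CD206; 1.42) rose, although Cd209b fell (-1.07); the Cd209 genes are close copies whose probe sets may share signal. Clec7a, the beta-glucan receptor Dectin-1, read 7.27, 7.37 and 7.56 on the naive and 5.16 and 4 on the IL-4c arrays, the largest fall of the list (log2 difference -2.82 ± 0.29 SE, adjusted p = 2.3e-06). Msr1 (-1.57), Cd36 (-1.49) and Cd163 (-1.19), all scavenger receptors, fell with it, as did Il10ra (-1.64). Of the ligands of PD-1, Cd274 (PD-L1) read 6.19, 5.1 and 5.44 on the naive and 6.83 and 6.59 on the IL-4c arrays, and Pdcd1lg2 (PD-L2) read 3.84, 3.57 and 3.72 on the naive and 5 and 4.32 on the IL-4c arrays. Cdh1, the E-cadherin gene, rose by 1.37. Cd209e did not pass without IL-4c replicate 1, or with an intensity trend with robust variance (0.53 to 1.58, adjusted p = 0.055 to 0.42). Without IL-4c replicate 1 the rises of Mrc1 (0.83, adjusted p = 0.099) and Pdcd1lg2 (0.61, adjusted p = 0.097) did not pass the test, nor did the fall of Cd209b (-0.8, adjusted p = 0.059) without IL-4c replicate 2.

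Members of the lectin list were compared at the sequence level because STAT6 is known to prefer a palindrome with a spacer of 4 bases, TTCNNNNGAA. The search used RefSeq windows of 300 bases in GRCm38.p6, from 250 bases before to 50 after a gene's start; the letters read alike on both strands. In these windows 5 of 14 lectin and receptor genes with a window held it (35.7%), against 5.28% of the 9352 tested genes with a window and 6.99% of all 27025 windows. Each list was searched for each motif, and no other list had as high a share of this one. It was held by 2 of 13 secreted products (15.4%) and 1 of 12 transcription factors of alternative activation (8.33%). Among genes of the receptor and its feedback 0 of 12 held it, and among arginine and polyamine genes 0 of 10. In the lectin list the match went with either direction. Cd209e, Pdcd1lg2 and Cd5l rose (1.58, 0.95 and 0.67), and Clec7a and Cd36 fell. The calls of Cd209e and Pdcd1lg2 were lost without IL-4c replicate 1, as given above. Of the 29 genes raised at least 8-fold that have a window 0 held it, and of the 574 raised at least 2-fold 6.62% did. The stretches printed here show 4 of these matches in capitals, in the direction of the gene; they lie at chr8:3854331-3854390 on the minus strand (Cd209e), chr19:29410812-29410871 on the plus strand (Pdcd1lg2), chr3:87357631-87357665 on the plus strand (Cd5l) and chr6:129472876-129472935 on the minus strand (Clec7a). A match is a match of letters and does not show binding.
Cd209e: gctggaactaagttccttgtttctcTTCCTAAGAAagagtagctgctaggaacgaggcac
Pdcd1lg2: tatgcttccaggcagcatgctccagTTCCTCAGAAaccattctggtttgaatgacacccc
Cd5l: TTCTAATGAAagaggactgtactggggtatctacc
Clec7a: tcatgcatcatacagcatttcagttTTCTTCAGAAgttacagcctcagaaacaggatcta

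Most measured genes of arginine use rose. For arginine and polyamine metabolism, 11 of 16 tested genes rose and 1 fell (median difference 0.68). Arg1, the arginase that turns arginine into ornithine and urea, read 8.36, 8.05 and 7.91 on the naive and 12.25 and 12.3 on the IL-4c arrays, an 18-fold rise (log2 difference 4.17 ± 0.17 SE, adjusted p = 1.6e-10). The arginine importer Slc7a2 read 8.33, 8.19 and 8.15 on the naive and 11.34 and 11.41 on the IL-4c arrays, and Gatm, which uses arginine for the opening step of creatine synthesis, read 4.02, 3.57 and 3.74 on the naive and 8.35 and 8.74 on the IL-4c arrays. In these 3 genes the IL-4c arrays agreed within 0.4 and stood at least 3 log2 units above the naive arrays. The downstream enzymes Odc1, which turns ornithine into putrescine (0.55), the spermidine synthase Srm (1.25) and Oat, which uses ornithine (0.61), rose less. So did Aldh18a1 (1.06), a gene of proline synthesis. Eif5a, the one protein that carries hypusine, a modification made from spermidine, rose by 0.75, with Dohh, which completes the modification, at 0.95. Sat1, which starts polyamine breakdown, fell by 1.11. Nos2 did not pass the filter on low signals.

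Most measured genes of cell division rose. DNA replication requires MCM helicases to be loaded on origins, a firing step, polymerases with their clamp, and a supply of deoxynucleotides. For DNA replication licensing and fork, 45 of 50 tested genes rose and 2 fell (median difference 1.4). Cdc6, a loader of the helicase, read 4.27, 4.29 and 4.3 on the naive and 6.5 and 6.54 on the IL-4c arrays; Mcm7, a helicase subunit, read 5.17, 5.29 and 5.5 on the naive and 7.38 and 7.64 on the IL-4c arrays; Prim1, the primase subunit, read 5.07, 4.77 and 4.84 on the naive and 7.36 and 7.62 on the IL-4c arrays. All 6 subunits Mcm2 to Mcm7 rose, by 1.56 (Mcm6) to 2.19 (Mcm7), and so did Cdc45 (2.17), Gins1 (2.4), Pole (2.1) and Uhrf1, which carries DNA methylation through replication (2.45). Pcna, the clamp, rose by less (0.67), from 10.12, 10.02 and 10.14 to 10.72 and 10.8. Orc3 and Orc5, subunits of the origin complex, fell (-0.52 and -0.41), and Orc2 (0.33), Rpa3 (0.56) and Pold3 (-0.13) did not pass the test. For nucleotide synthesis, 25 of 35 tested genes rose and 3 fell (median difference 0.76). The largest rises there were the 2 subunits of ribonucleotide reductase, Rrm2 (5.34, 5.2 and 5.4 on the naive and 9.2 and 9.62 on the IL-4c arrays) and Rrm1 (2.31), thymidylate synthase Tyms (2.72) and the mitochondrial one-carbon enzymes Shmt2 (2.11) and Mthfd2 (1.36). Samhd1, which breaks down deoxynucleotides and is known for keeping their level low in resting macrophages, fell from 10.73, 10.6 and 10.66 to 10.25 and 10.02 (-0.53), as did Tk2 (-0.51) and Ctps2 (-0.75). Rrm2b, the subunit used by resting cells, did not pass the test (-0.27). The falls of Orc3 (-0.39, adjusted p = 0.053) and Tk2 (-0.41, adjusted p = 0.11) were lost without IL-4c replicate 1. Orc5 did not pass without IL-4c replicate 1, without naive replicate 1, or with each array centred on its own median or the replicate block (-0.39 to -0.3, adjusted p = 0.053 to 0.2).

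Replication genes are known targets of E2F factors, so their promoters were searched on both strands for the E2F letters TTTCCCGC, TTCCCGCC and TTTGGCGC, the first and the second of which overlap one another. Of the 41 replication genes with a window 17 held at least 1 of them (41.5%), against 6.17% of tested genes, 11.8% of genes raised at least 2-fold and 2.79% of genes lowered at least 2-fold; 15 of the 17 rose, Pold3 did not pass the test and Orc3 fell. The repair genes stood at 29.2% (7 of 24). The stretches shown are those of 4 of the replication genes that rose by more than 2 log2 units, with the match in capitals. Only matches before the gene's start were chosen for printing. They lie at chr10:128015175-128015214 on the plus strand (Prim1), chr17:56303264-56303321 on the plus strand (Uhrf1), chr11:98907988-98908045 on the plus strand (Cdc6) and chr5:138172016-138172073 on the minus strand (Mcm7); Prim1 and Uhrf1 hold the motif as spelled and Cdc6 and Mcm7 hold it on the opposite strand.
Prim1: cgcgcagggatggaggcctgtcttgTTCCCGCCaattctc
Uhrf1: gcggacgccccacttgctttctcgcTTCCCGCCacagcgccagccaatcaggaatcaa
Cdc6: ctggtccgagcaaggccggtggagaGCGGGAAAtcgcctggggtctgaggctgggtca
Mcm7: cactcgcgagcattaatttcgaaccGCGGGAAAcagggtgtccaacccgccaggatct

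Cyclins of the later phases of the cycle rose, and of the D-type cyclins 1 did. For cyclins, cyclin-dependent kinases and inhibitors, 20 of 29 tested genes rose and 3 fell (median difference 1.07). Cdk1, the kinase that starts mitosis, read 5.86, 5.93 and 5.94 on the naive and 8.27 and 8.89 on the IL-4c arrays. Cyclin A (Ccna2; 2.48), cyclin B (Ccnb2; 2.26), cyclin F (Ccnf; 2.47) and the E cyclins (Ccne1; 2.26 and Ccne2; 1.67) rose. Of the D cyclins, which respond to growth signals, Ccnd3 rose by 0.57, whereas Ccnd1, at 9.77, 9.44 and 9.87 on the naive and 9.19 and 9.36 on the IL-4c arrays, and Ccnd2, at 5.66, 5.56 and 5.89 on the naive and 4.99 and 5.34 on the IL-4c arrays, did not pass the test. Cdkn1b, the inhibitor p27 of resting cells, fell from 9.1, 9.34 and 9.11 to 8.03 and 7.95 (-1.2), and Ccng2, a cyclin of cells leaving the cycle, fell by 0.66. Among E2F factors and pocket proteins, 12 of 17 tested genes rose and 1 fell (median difference 0.83): the activators E2f1 (1.15) and E2f2 (2.11), the late repressors E2f7 (1.58) and E2f8 (2.06) and the mitotic factors Foxm1 (2.3) and Mybl2 (1.21) rose, and the pocket protein of resting cells, Rbl2, fell (-0.46). Without IL-4c replicate 1, Rbl2 (-0.42, adjusted p = 0.064) did not pass. Ccnd3 did not pass without IL-4c replicate 1 or 2 (0.56 to 0.57, adjusted p = 0.056 to 0.058).

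Mitotic genes gave the highest count. For spindle, kinetochore and cytokinesis, 74 of 76 tested genes rose and 1 fell (median difference 1.89). Spc24, a part of the outer kinetochore, read 5.55, 5.77 and 5.4 on the naive and 8.12 and 8.65 on the IL-4c arrays; Bub1, a spindle checkpoint kinase, read 4.85, 4.98 and 4.59 on the naive and 7.3 and 7.78 on the IL-4c arrays; Ube2c, which tags mitotic proteins for destruction, read 6.81, 6.6 and 7.01 on the naive and 9.17 and 9.36 on the IL-4c arrays. In each of these the IL-4c arrays stood over 2 log2 units above the naive arrays. Of the list, 69 genes rose at least 2-fold, among them kinesins (Kif4 2.4, Kif2c 2.28, Kif11 2.15), Aurora kinases (Aurka 2.64, Aurkb 2.62), condensins (Ncaph 2.18, Smc2 2.12) and the proliferation antigen Mki67 (1.77). Pttg1, the securin gene, fell (-0.33), and Smc4 did not pass the test (0.27). The list's single fall was not stable: Pttg1 did not pass without IL-4c replicate 2, without naive replicate 2 or 3, or with a second quantile normalization or the replicate block (-0.33 to -0.24, adjusted p = 0.053 to 0.25). On the naive arrays the list had a mean signal of 5.5 to 5.54, and on the IL-4c arrays of 7.24 to 7.49. DNA repair by recombination followed: 20 of 30 tested genes rose and 0 fell (median difference 1.05), with Rad51ap1 (2.06), Rad54l (1.91), Brca1 (1.7) and Chek1 (1.67) among the rises. In bulk samples a larger share of dividing cells and more of these transcripts per cell cannot be told apart, nor, for the falls described below, fewer cells of a type and less RNA per cell.

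Late cell-cycle genes often carry the CHR element TTTGAA near their start, where the DREAM and MuvB complexes act. On both strands 41 of 64 spindle genes with a window held these letters (64.1%), against 11.8% of tested genes, 18.1% of all windows and 21.6% of genes raised at least 2-fold. The cyclin list stood at 28.6% (6 of 21) and the replication list near the background at 14.6% (6 of 41). The letters are short, and 8 of the 13 secreted products with a window held them as well (61.5%). The 5 stretches shown are from genes of the spindle and cyclin lists that rose by over 2 log2 units, with the element in capitals: chr2:164769875-164769928 on the plus strand (Ube2c), chr4:118437344-118437386 on the minus strand (Cdc20), chr19:37376338-37376381 on the plus strand (Kif11), chr10:69352953-69353008 on the minus strand (Cdk1) and chr17:24251509-24251564 on the minus strand (Ccnf). In Ube2c, Cdc20 and Kif11 the match starts at positions -29, -18 and -19 relative to the gene's start. Other matches lie further away: the first starts at -71 in Cdk1 and at -130 in Ccnf. In Kif2c and Smc2, spindle genes whose stretches are not shown, it starts at -103 and -145. Ube2c and Kif11 hold it on the opposite strand, as TTCAAA.
Ube2c: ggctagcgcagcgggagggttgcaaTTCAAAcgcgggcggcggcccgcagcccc
Cdc20: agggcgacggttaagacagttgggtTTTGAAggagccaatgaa
Kif11: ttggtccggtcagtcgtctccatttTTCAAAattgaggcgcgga
Cdk1: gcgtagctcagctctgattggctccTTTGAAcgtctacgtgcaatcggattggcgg
Ccnf: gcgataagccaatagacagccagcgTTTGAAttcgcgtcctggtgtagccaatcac

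**Figure D2:**
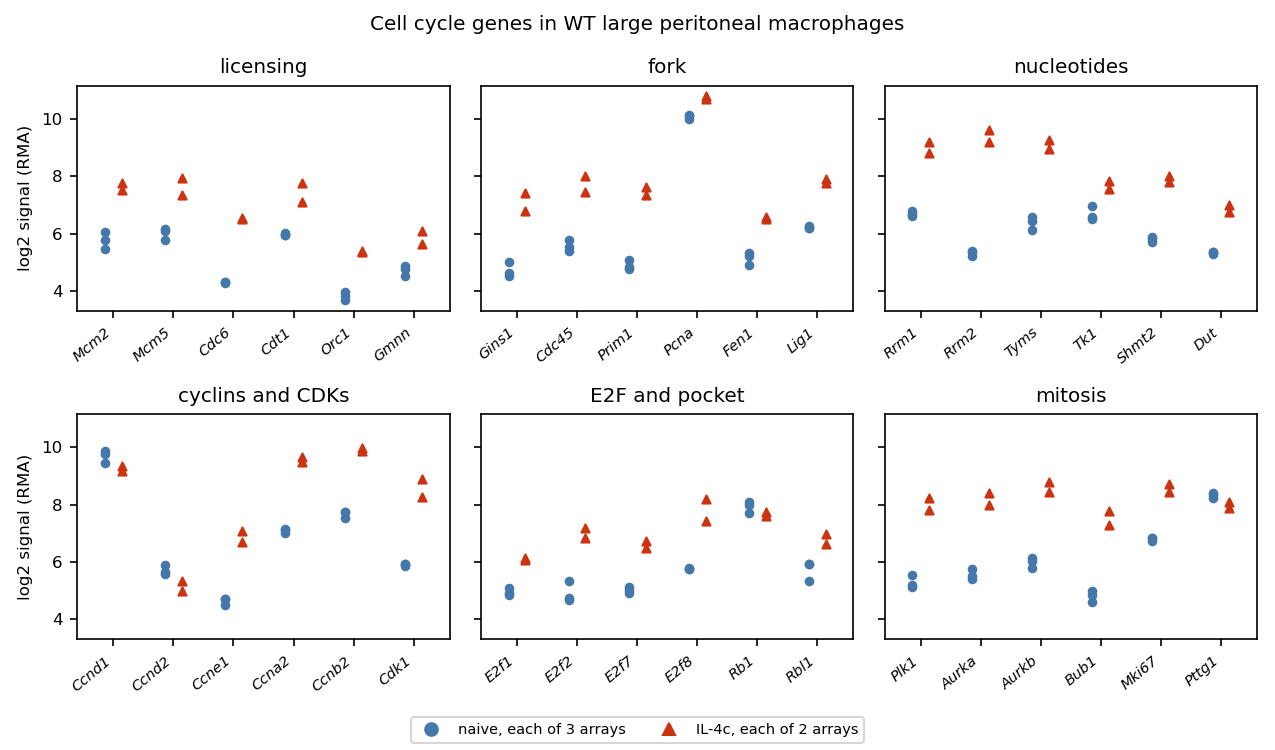
Log2 signal (RMA) on each array in WT LPM for chosen cell-cycle genes, with naive arrays as blue circles and IL-4c arrays as red triangles. Panels hold genes of licensing, the fork, nucleotides, cyclins and their kinases, E2F and pocket proteins, and mitosis. Rrm2, Tyms, Aurka and Bub1 are among the rises shown, Pttg1 fell, and Ccnd1 and Ccnd2 did not pass the test.

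Genes of growth outside the cycle moved less. In the Myc network 2 of 12 tested genes rose and 3 fell (median difference 0.09), and Myc itself read 9.86, 9.14 and 9.36 on the naive and 9.82 and 9.65 on the IL-4c arrays. For ribosome biogenesis, 11 of 39 tested genes rose and 3 fell (median difference 0.2); Nhp2 (1.37) and Rrp12 (1.27) rose, while the nucleolar proteins Npm1 (-0.62) and Ncl (-0.56) fell. Without IL-4c replicate 2, 6 ribosome biogenesis genes rose and 3 fell. In the proteasome list 19 of 36 tested genes rose and 0 fell (median difference 0.37), all at under 2-fold except Psmb10 (1.06), and 12 rose without IL-4c replicate 2. In the endoplasmic reticulum 18 of 35 tested genes rose and 4 fell (median difference 0.29): the chaperones Pdia6 (1.31), Hyou1 (1.26), Sdf2l1 (1.3) and Creld2 (1.3) rose, but Hspa5 (BiP; 0.11) and Xbp1 (-0.01) did not pass the test and the stress sensor Ern1 fell (-0.99); the 4 falls were 1 without IL-4c replicate 2 and 2 without naive replicate 3. Of the targets of ATF4, the factor of amino acid shortage, 7 of 16 tested genes rose and 1 fell (median difference 0.4), with asparagine synthetase Asns (4.22, 3.93 and 4.33 on the naive and 6.11 and 6.38 on the IL-4c arrays), the serine enzyme Psat1 (1.98) and the leucine transporter Slc7a5 (1.63) highest, and Atf4 itself not past the test (-0.17).

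Many genes of energy metabolism rose, mostly by less than 2-fold. In the respiratory chain, for complex I 28 of 35 tested genes rose and 1 fell (median difference 0.58), and for complexes II to V 31 of 38 tested genes rose and 0 fell (median difference 0.75). Sdhd, a membrane subunit of succinate dehydrogenase, read 7.44, 7.23 and 7.38 on the naive and 9.11 and 9.16 on the IL-4c arrays; Uqcrc1, of complex III, read 7.76, 7.64 and 7.75 on the naive and 9.13 and 9.32 on the IL-4c arrays; Ndufa11, of complex I, read 9.65, 9.47 and 9.82 on the naive and 10.92 and 11.16 on the IL-4c arrays. Ndufa4 was the exception, falling from 11.09, 11.09 and 11.09 to 9.48 and 9.85 (-1.43). It was counted with complex I by its name, so its fall is not to be read as one of complex I. In the tricarboxylic acid cycle 19 of 30 tested genes rose and 1 fell (median difference 0.64), with Idh2 (1.35), Idh3a (1.31), Fh1 (1.3) and the aspartate transaminase Got1 (1.7) among the largest. Acod1, which makes itaconate in inflamed macrophages, did not pass the test (-0.17).

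Glycolytic genes rose, transporters among the most. For glycolysis, 13 of 20 tested genes rose and 3 fell (median difference 0.95). The lactate and pyruvate carriers Slc16a1 (4.5, 4.51 and 4.21 on the naive and 6.73 and 6.87 on the IL-4c arrays) and Slc16a3 (2.14), the mutase Pgam1 (8.53, 8.26 and 8.27 on the naive and 10.65 and 10.77 on the IL-4c arrays), the regulator Pfkfb4 (1.94) and the glucose importer Slc2a1 (6.47, 6.06 and 6.34 on the naive and 8.11 and 8.07 on the IL-4c arrays) rose most. Hexokinases diverged: Hk1 fell (-1.03), Hk3 rose (0.75) and Hk2 did not pass the test (0.25). The lactate dehydrogenase genes diverged too, with Ldha up by 1.3 and Ldhb down from 6.27, 6.64 and 6.68 to 4.99 and 4.98. The rise of Hk3 (0.68, adjusted p = 0.059) was lost without IL-4c replicate 2, and with the mean of its probe sets in place of the brightest Hk1 stood at -0.26 (adjusted p = 0.15). In the pentose phosphate and glutathione list 14 of 24 tested genes rose and 3 fell (median difference 0.64): Gsto1 (1.99) and Tkt (1.2) rose and Mgst1, a membrane glutathione transferase, fell from 10.17, 10.34 and 10.26 to 8 and 8.13.

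Lipid genes did not move as a block. For fatty acid uptake and oxidation, 11 of 29 tested genes rose and 5 fell (median difference 0.25). The count of rises did not hold: with any 1 of the 5 arrays left out, 6 rose and 5 fell, and 7 rose with centring on the tested genes or without the filter on dim probe sets. Some enzymes of the mitochondrial spiral rose by less than 2-fold (Hadh 0.74, Acads 0.62, Cpt2 0.52), while genes of uptake fell: lipoprotein lipase Lpl read 9.67, 9.39 and 9.85 on the naive and 7.79 and 6.7 on the IL-4c arrays, and the fatty acid carrier Fabp4 fell by 1.2. Pdk4, a brake on pyruvate oxidation, fell by 2.07. Cpt1a, the gate of fatty acid entry into mitochondria, did not pass the test (-0.13). In cholesterol synthesis 13 of 20 tested genes rose and 0 fell (median difference 0.56), with Fdps (1.35), Dhcr7 (1.25) and Mvd (1.24) highest; 5 rose without IL-4c replicate 2, 8 without naive replicate 1 and 6 without naive replicate 2. In fatty acid synthesis 6 of 16 tested genes rose and 5 fell (median difference 0.29): the desaturases Scd2 (1.99) and Scd1 (1.31) and Fasn (1.08) rose, but Acaca, the carboxylase that feeds Fasn, fell (-1.38). Without IL-4c replicate 2, 3 genes of fatty acid synthesis rose and 4 fell. Among targets of LXR, the sterol-sensing nuclear receptor, 5 of 15 tested genes rose and 6 fell (median difference 0.1). Genes of cholesterol export and its lipoproteins were among the falls. Apoe read 12.72, 12.77 and 12.81 on the naive and 10.11 and 10.37 on the IL-4c arrays. Abca1 read 8.08, 7.9 and 7.6 on the naive and 5.79 and 4.89 on the IL-4c arrays. Apoc1 (-2.12) and Pltp (-1.34) were lower too, although Abcg1 rose (0.85). Mylip, another gene of the list, fell (-1.68), and Nr1h3, the gene of LXR alpha, did not pass the test (0.14). The call of Abcg1 (0.6, adjusted p = 0.099) was lost without IL-4c replicate 1 and that of Apoc1 (-1.84, adjusted p = 0.084) without IL-4c replicate 2. Cpt2 did not pass without IL-4c replicate 1, or without naive replicate 1 or 2 (0.4 to 0.48, adjusted p = 0.056 to 0.16).

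**Figure D3:**
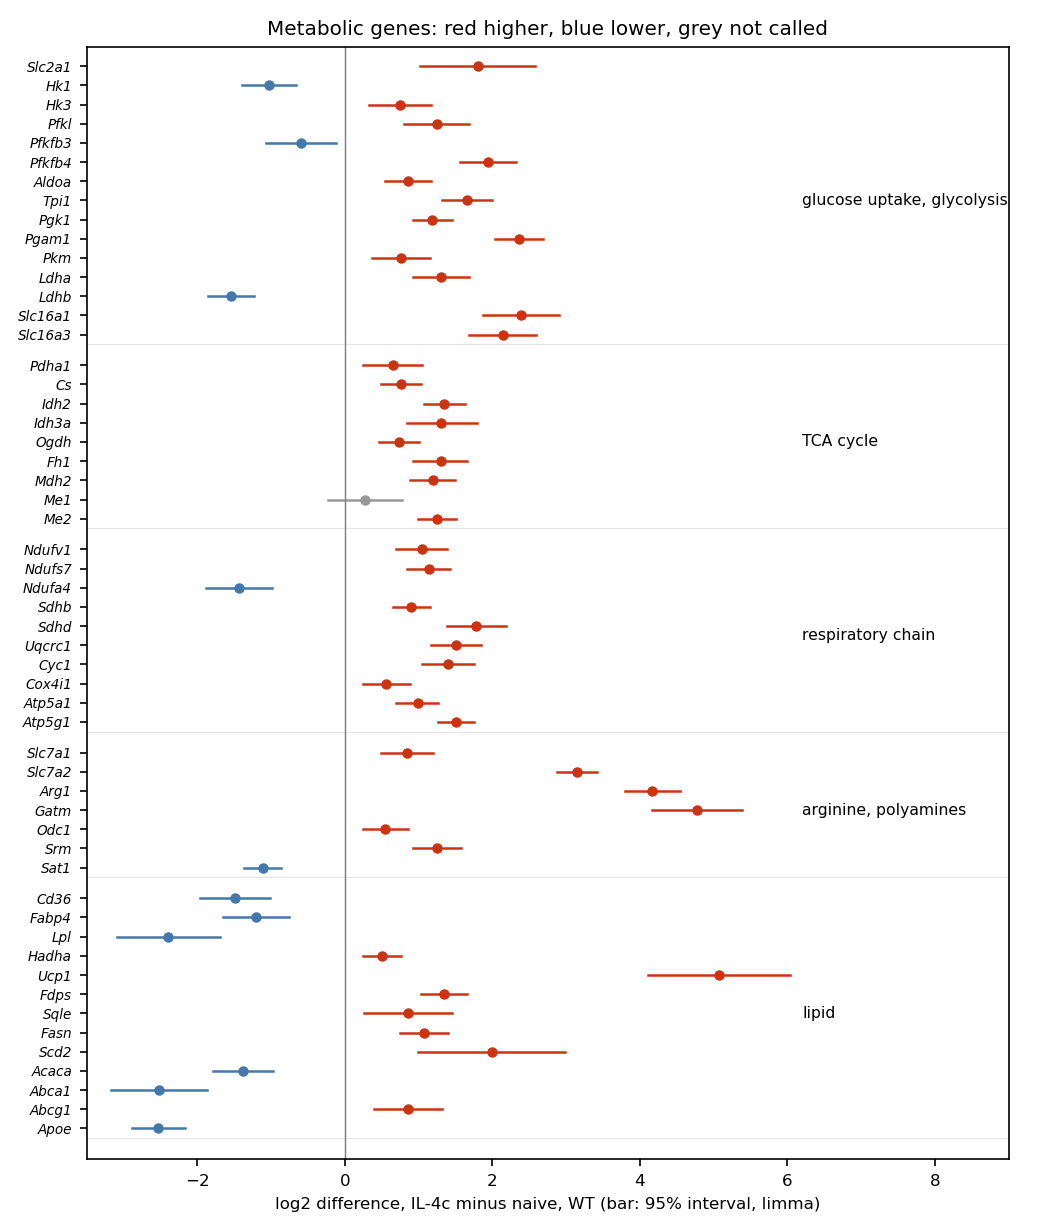
Log2 difference (IL-4c minus naive) in WT LPM for chosen metabolic genes, with bars for limma's 95% interval. Genes called higher are red, genes called lower blue and genes not called grey. Among the respiratory chain genes shown, Sdhd lies at 1.78 and Ndufa4 at -1.43, and the lipid genes shown lie on both sides of 0.

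Lysosomal genes were called in both directions at shares near those of all tested genes. For lysosome and cathepsins, 11 of 45 tested genes rose and 8 fell (median difference 0.14), and without IL-4c replicate 1 or naive replicate 2 both counts were 7. After Cst7 the largest rises were alpha-galactosidase Gla (1.68) and the phosphatase Acp5 (1.54). Cathepsins differed in direction: Ctsz (0.99) and Ctsl (0.89) rose, Ctsh (-0.83), Ctsc (-0.6) and Ctss (-0.58) fell, and Ctsb (0.14) and Ctsd (0) did not pass the test. The tetraspanin Cd63 fell from 10.36, 10.27 and 10.47 to 9.31 and 8.28.

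Genes that mark the resident peritoneal macrophage fell in part. For peritoneal macrophage identity, 1 of 37 tested genes rose and 18 fell (median difference -0.5). Cxcl13, a chemokine for B cells, read 11.5, 11.7 and 11.62 on the naive and 6.81 and 5.76 on the IL-4c arrays (log2 difference -5.32 ± 0.33 SE, adjusted p = 1.3e-08). The caveolin Cav1 read 7.73, 8.48 and 7.99 on the naive and 4.96 and 5.14 on the IL-4c arrays, the growth factor Hgf read 6.29, 6.46 and 6.04 on the naive and 3.45 and 3.16 on the IL-4c arrays, and Tgfb2 fell by 2.17. These 4 genes fell at least 4-fold, whereas Gata6 (0.28), Adgre1 (-0.07), Itgam (-0.17) and Icam2 (-0.19) did not pass the test. F10 rose (0.43). In complement and coagulation 3 of 25 tested genes rose and 10 fell (median difference -0.23): the transglutaminase subunit F13a1 read 7.63, 9.04 and 9.18 on the naive and 4.74 and 4.25 on the IL-4c arrays, the receptors C5ar1 (-1.09) and C3ar1 (-0.75) and factor V (F5; -1.76) fell, and Cd59a, a shield against complement, rose (0.79). Of the integrins 2 of 14 tested genes rose and 5 fell (median difference -0.24), Itga6 (-2.24) and Itga4 (-1.73) falling and Itgb7 (1.06) rising most. The rise of Cd59a (0.63, adjusted p = 0.056) was lost without IL-4c replicate 1. F10 did not pass without IL-4c replicate 1 or 2, or without naive replicate 1 or 3 (0.37 to 0.49, adjusted p = 0.05 to 0.14).

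Receptors for dead cells and microbes were rearranged. For efferocytosis and scavenger receptors, 7 of 34 tested genes rose and 17 fell (median difference -0.36). Clec4d, a lectin for fungal and mycobacterial lipids, read 10.63, 10.84 and 10.48 on the naive and 7.24 and 6.33 on the IL-4c arrays, and Clec5a (-2.12), Clec12a (-1.44) and Clec4e (Mincle; -1.12) fell too. Of the receptors for phosphatidylserine, Mertk (-0.86), Timd4 (-0.68) and the bridge Mfge8 (-1.3) fell, while Axl, a kinase related to Mertk, rose from 5.25, 5.23 and 5.36 to 6.04 and 6.94 and Havcr2 (TIM-3) rose by 1.22. In the paired immune receptors 3 of 24 tested genes rose and 15 fell (median difference -0.59). Pilra, an inhibitory receptor, read 10.36, 10.45 and 10.44 on the naive and 6.46 and 6.6 on the IL-4c arrays, with Fcgr1 (-2.62), Siglece (-2.5), Pilrb1 (-2.53) and Pilrb2 (-2.44) also lower; the last pair are close copies whose probe sets may share signal. Trem2, a lipid-sensing receptor (1.26), Cd300lf (1.37) and the inhibitory Fc receptor Fcgr2b (0.8) rose. Among Toll-like receptors and their partners 1 of 22 tested genes rose and 11 fell (median difference -0.35): Tlr2 read 7.99, 8 and 7.96 on the naive and 5.55 and 5.31 on the IL-4c arrays, Cd14 fell by 2.08 and the inflammasome sensor Nlrp3 by 2.69, and Tlr4 rose (0.53). Timd4 did not pass without IL-4c replicate 1 or 2, without naive replicate 2 or 3, or with the replicate block (-0.75 to -0.54, adjusted p = 0.052 to 0.14). Tlr4 did not pass without IL-4c replicate 1, or without naive replicate 3 (0.45 to 0.49, adjusted p = 0.051 to 0.081). Without IL-4c replicate 2, Axl (0.76, adjusted p = 0.057) did not pass, and in the list of efferocytosis and scavenger receptors 4 genes rose and 13 fell.

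Many inflammatory chemokines fell. For chemokines and chemokine receptors, 1 of 27 tested genes rose and 14 fell (median difference -0.61). Cxcl2, which attracts neutrophils, read 10.55, 10.65 and 10.33 on the naive and 6.39 and 5.59 on the IL-4c arrays, and Ccl3, which attracts monocytes, read 9.38, 8.61 and 8.91 on the naive and 4.94 and 3.96 on the IL-4c arrays. Ccl2 read 8.31, 7.84 and 8.03 on the naive and 5.09 and 4.64 on the IL-4c arrays. Cxcl1 (-2.57), Cxcl16 (-2.41) and the atypical receptor Ccrl2 (-2.3) fell as well. Ccl5 was the one riser, from 5.68, 5.23 and 5.34 to 8.88 and 7.9. Of the cytokines and their receptors 4 of 25 tested genes rose and 13 fell (median difference -0.51); Csf3r, the receptor for G-CSF, read 9.2, 9.44 and 9.38 on the naive and 5.88 and 5.32 on the IL-4c arrays, Tnf fell by 0.73, Il6 rose by 2.09 and Il1b did not pass the test (-0.22). Tnf did not pass without IL-4c replicate 1 or 2, without naive replicate 1, or with a second quantile normalization, each array centred on its own median, no filter on dim probe sets or the LPM arrays alone (-0.82 to -0.52, adjusted p = 0.054 to 0.19). In the interferon list 2 of 22 tested genes rose and 7 fell (median difference -0.13), with 4 falls without IL-4c replicate 1, IL-4c replicate 2 or naive replicate 3, and in the MHC class II list 0 of 11 tested genes rose and 3 fell (median difference -0.21), with the costimulator Cd86 at 7.63, 7.83 and 7.41 on the naive and 5.49 and 5.59 on the IL-4c arrays.

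The letters of the NF-kB motif, searched on both strands as GGGNNTTTCC and GGGNNTTCCC, were found in 7 of 20 chemokine genes with a window (35.0%), against 3.60% of tested genes. In the genes lowered at least 2-fold the share was 3.72%. Of the 7, Cxcl2, Cxcl1, Ccrl2 and Cxcl10 (-0.85) fell, and Cxcl9 (-0.47), Ccl9 (-0.09) and Cxcl3 (0.22) did not pass the test. The stretches of the 3 that fell by over 2 log2 units are shown, with a match in capitals, at chr5:90903777-90903836 on the plus strand (Cxcl2), chr5:90891131-90891190 on the plus strand (Cxcl1) and chr9:111057540-111057599 on the minus strand (Ccrl2).
Cxcl2: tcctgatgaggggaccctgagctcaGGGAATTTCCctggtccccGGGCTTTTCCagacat
Cxcl1: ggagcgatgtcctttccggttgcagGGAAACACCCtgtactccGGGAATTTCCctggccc
Ccrl2: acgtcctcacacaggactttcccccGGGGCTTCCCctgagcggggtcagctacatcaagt

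Many immediate early genes, which cells switch on within minutes of a stimulus, fell. For immediate early and feedback genes, 1 of 32 tested genes rose and 19 fell (median difference -0.83). Of the genes that damp signals of G-protein-coupled receptors, Rgs1 read 8.08, 8.67 and 7.63 on the naive and 4.19 and 3.91 on the IL-4c arrays, and Rgs2 read 9.86, 9.91 and 9.63 on the naive and 5.37 and 5.59 on the IL-4c arrays; of the regulators of G-protein signalling 1 of 6 tested genes rose and 3 fell (median difference -0.75). The phosphatases of MAP kinases Dusp6 (8.65, 9 and 8.78 on the naive and 5.08 and 5.06 on the IL-4c arrays) and Dusp1 (11.81, 11.96 and 11.77 on the naive and 8.81 and 8.28 on the IL-4c arrays) and the NF-kB regulator Nfkbiz (-3.06) fell at least 8-fold. Fos (-2.54), Jun (-2.12), Egr1 (-1.35) and Zfp36 (-1.92) were also lower, Klf4 rose, as given above, and Junb (-0.27), Nfkbia (-0.21) and Atf3 (-0.13) did not pass the test. In the circadian list 3 of 15 tested genes rose and 7 fell (median difference -0.54): Nr1d1, the repressor REV-ERB alpha, read 8.41, 9.23 and 9.67 on the naive and 6.17 and 6.34 on the IL-4c arrays, Per1 fell by 1.61, and Nfil3 and Cry1 rose (1.4 and 0.81). Without IL-4c replicate 1, Egr1 (-0.85, adjusted p = 0.17) and Cry1 (0.65, adjusted p = 0.13) did not pass, and in the circadian list 1 gene rose and 4 fell; without naive replicate 2 the counts were 2 and 4. The labels give no hour of killing.

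**Figure D4:**
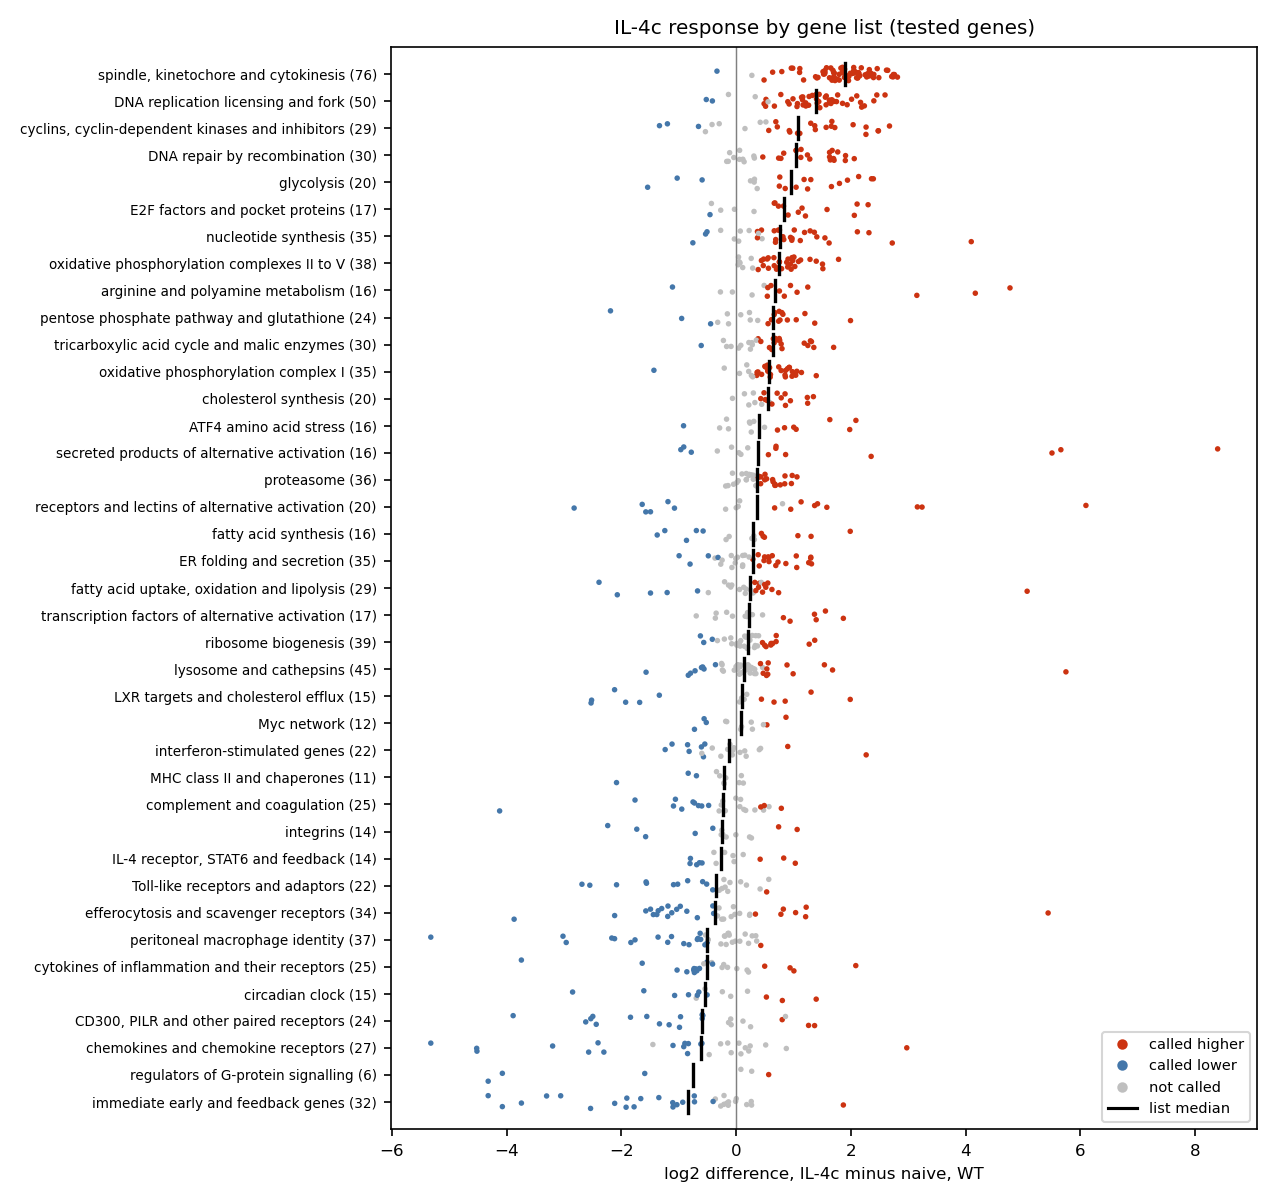
Log2 difference (IL-4c minus naive) in WT LPM of each tested gene by gene list, with a black bar at the list median. The number of tested genes stands beside each list's name. Genes called higher are red, genes called lower blue and genes not called grey. The spindle list has the highest median (1.89) and the immediate early list the lowest (-0.83), against 0.021 over all tested genes.

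Among markers of other cells of the peritoneal cavity, those of B cells were called most often, as lower. Of the 13 B cell markers with a probe set 9 were tested, 0 rose and 7 fell, 5 lay below the array median on all 5 arrays, and their mean signal was 4.76 to 4.87 on the naive and 4.14 to 4.18 on the IL-4c arrays. Bank1, a B cell scaffold, read 8.4, 8.47 and 8.53 on the naive and 6.14 and 6.24 on the IL-4c arrays and Cd79a, a chain of the B cell receptor complex, read 4.32, 5.07 and 4.68 on the naive and 3.11 and 2.97 on the IL-4c arrays, near background on the IL-4c arrays. The part of these cells in the other falls was not tested. For T and NK cells 11 of 12 markers lay below the array median on all 5 arrays, and the 3 tested did not pass the test. Of 9 tested markers of monocytes, dendritic cells and small peritoneal macrophages 2 rose (Irf4 and Clec10a, which are also on the lists above) and 3 fell (Plac8, Ccr2 and Ccr7), and the mean signal was 4.58 to 4.72 and 4.63 to 4.95. Of 6 tested neutrophil markers 0 rose and 3 fell (Csf3r, S100a8 and Mmp9). Eosinophils had 2 tested markers, of which Alox15, also a gene of LPM, fell, while Siglecf did not pass the test (-0.02). The markers tested for mast cells (3) and for mesothelial cells and fibroblasts (5) did not pass the test, and of erythroid and platelet markers the 1 tested, Pf4, fell (-0.89). Of these marker calls, Ccr2 (-0.78, adjusted p = 0.14) and S100a8 (-0.65, adjusted p = 0.077) were lost without IL-4c replicate 2, and without either IL-4c array 4 B cell markers fell. Plac8 did not pass without IL-4c replicate 2, without naive replicate 2, or with an intensity trend with robust variance (-1.51 to -0.75, adjusted p = 0.077 to 0.36). Ccr7 did not pass without IL-4c replicate 1, or without naive replicate 3 (-0.55 to -0.44, adjusted p = 0.061 to 0.19). Alox15 did not pass without IL-4c replicate 1 or 2, or without naive replicate 1 or 3 (-0.54 to -0.47, adjusted p = 0.058 to 0.13).

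The same injections were given to Bhlhe40KO mice, which allows each gene's response to be compared between genotypes on arrays that share no sample. In LPM of Bhlhe40KO mice the probe set of Bhlhe40 read 6.79, 6.5 and 7.11 on the naive and 8.01 and 7.9 on the IL-4c arrays, against 8.66, 8.75 and 8.64 on the naive and 8.77 and 8.99 on the IL-4c arrays in wild type. The labels do not say where this probe set lies relative to the deleted part. Of the 704 genes raised at least 2-fold in wild type 645 also rose in KO, with a median difference of 1.11 against 1.42, and of the 560 lowered genes 483 also fell, with a median of -0.99 against -1.34. These genes were chosen for their size in wild type, so the medians are no test of a difference. Over the 11634 genes the 2 responses correlated at r = 0.858 (rho = 0.81, across genes, which are not independent). A difference between the responses passed the test for 64 genes (0.550%), 47 (0.404%) with a higher and 17 (0.146%) with a lower response in KO. Of the 64, 39 fell in wild type with a higher KO response and 13 rose in wild type with a lower KO response. The count of 64 depends on single arrays: it was 20 without IL-4c replicate 2 of WT, 37 without naive replicate 2 of WT, 33 without IL-4c replicate 1 of KO and 124 without IL-4c replicate 2 of KO.

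The lower responses in KO were led by Ly6a2, Timd2, Mall and Parm1. Ly6a2 rose to 7.93 and 8.63 in wild type and read 3.64 and 4.59 on the KO IL-4c arrays, from 3.54, 3.03 and 3.4 on the KO naive arrays (KO minus WT response -4.2 ± 0.57 SE, adjusted p = 0.0026). Timd2 rose in both genotypes, to 8.46 and 8.9 in wild type and 5.32 and 6.29 in KO (-2.97 ± 0.42 SE, adjusted p = 0.0037). Mall (-2.72), Parm1 (-2.19), the insulin receptor substrate Irs1 (-1.42), Cd300lf (-1.48) and the mitotic helicase Ercc6l (-1.42) also had a lower response in KO. Irs1 was dim, at 5.03 and 5.58 on the IL-4c arrays in wild type and 4.08 and 3.78 in KO. With the mean of its 2 probe sets it did not pass the filter on low signals and was not tested. Arg1 was called lower in its response (-1.43 ± 0.25 SE, adjusted p = 0.013), but the groups met at the treated end: the IL-4c arrays read 12.25 and 12.3 in wild type and 12.36 and 12.24 in KO, while the naive arrays read 8.36, 8.05 and 7.91 in wild type and 9.61, 9.26 and 9.81 in KO. Ucp1 had a KO minus WT response of -2.9 that did not pass the test (adjusted p = 0.059).

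In the other direction, Plac8 changed sign. It read 5.32, 5.95 and 4.97 on the naive and 4.66 and 3.14 on the IL-4c arrays in wild type and rose from 5.94, 5.75 and 5.72 to 9.38 and 9.03 in KO (4.92 ± 0.72 SE, adjusted p = 0.0041). Plac8 is also on the marker list of small peritoneal macrophages and monocytes, and its part in the genotype difference was not tested. Its fall in wild type was lost under 3 alternatives, as given among the markers. Tnxb, the gene of a matrix protein, read 4.32, 4.21 and 4.38 on the naive and 4.53 and 4.15 on the IL-4c arrays in wild type and rose to 7.57 and 6.52 in KO (2.64). Several wild-type falls were smaller in KO: Neurl3, a ubiquitin ligase gene, read 4.59 and 4.57 with IL-4c in wild type and 6.65 and 6.66 in KO, from naive signals of 7.94, 7.93 and 7.91 in wild type and 7.74, 7.55 and 7.38 in KO (2.45 ± 0.23 SE, adjusted p = 0.00022), and Hgf (2.24), Csf3r (1.92) and Rassf2 (1.85) also fell less. Hcar2 (2.45) and Itga9 (1.94) fell in wild type and did not pass the test in KO (0.47 and 0.37). The naive arrays of Hcar2 read 6.06, 6.27 and 6.45 in wild type and 5.13, 5.02 and 4.72 in KO. Of the immediate early genes 5 were called: Dusp1 (1.33), Jun (1.3), Zfp36 (1.15) and Nfkbiz (1.13) fell less in KO, and Ier3 (1.33), a regulator of survival and signalling, fell in wild type (-1.1) and did not pass the test in KO (0.22). In the cell-cycle lists Orc1 (-1.13), of the origin complex, Ccne1 (-1.24) and E2f7 (-1.2) had a lower response in KO. In the spindle list limma called 0 genes for a difference between responses, with 28 of the 76 (36.8%) at an unadjusted p under 0.05 against 13.1% of all tested genes, and 70 of 76 rose in KO, with a median difference of 1.33 against 1.89 in wild type. In the replication list 22 of 50 genes were at an unadjusted p under 0.05, with a median difference of 0.8 in KO against 1.4, and in the repair list 15 of 30, with 0.51 against 1.05. Such shares were not particular to division: they were 43.8% for immediate early, 42.9% for endoplasmic reticulum and 42.2% for lysosomal genes. In the endoplasmic reticulum list the KO median was the larger (0.7 against 0.29). Other lists had lower shares, down to 0% for complex I and the proteasome. Of the 25 genes named here for a genotype difference, Plac8, Tnxb, Neurl3, Hgf, Csf3r, Rassf2, Ier3, Ly6a2, Timd2 and Parm1 kept the call with each of the 10 arrays left out in turn and under the other settings tried. The other 15 lost it at least once, most of them without IL-4c replicate 2 of WT. Nfkbiz lost it with each of the other arrays left out.

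**Figure D5:**
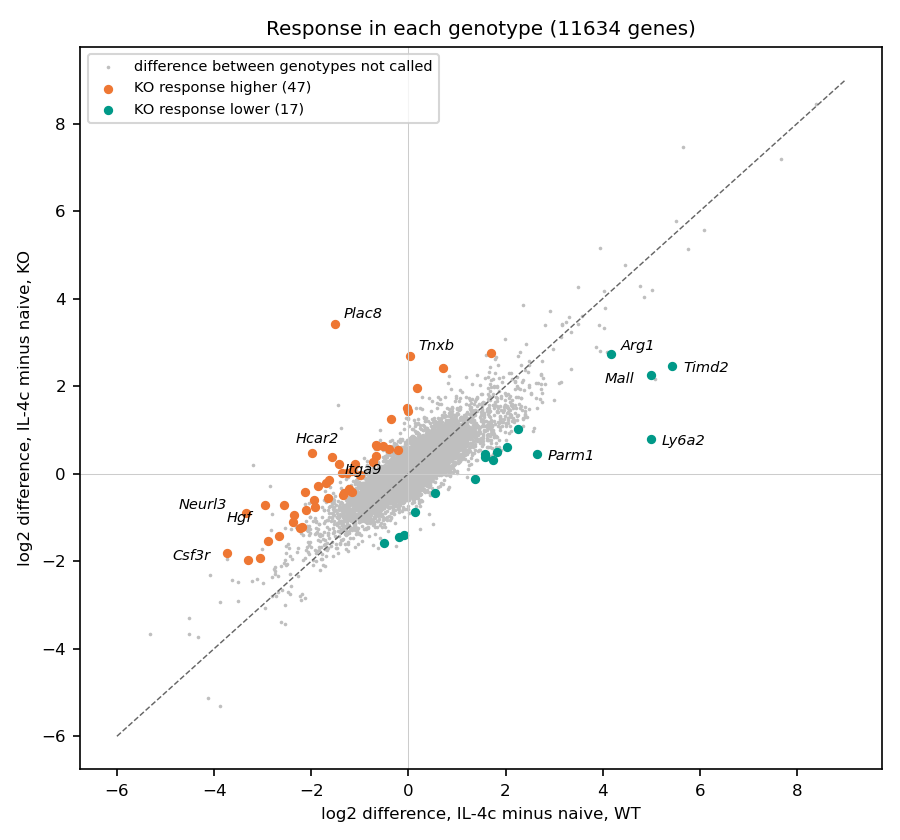
Log2 difference (IL-4c minus naive) of each of 11634 tested genes in WT (x axis) and KO (y axis) LPM, with the line of equal response dashed and the genes called for a difference between genotypes in orange (47, KO response higher) and green (17, KO response lower). Plac8 lies above 0 in KO and below it in WT, and Ly6a2, Timd2 and Mall lie to the right of the line.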

How the data were processed

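Values were log2 signals per probe set deposited by the authors as 1 table of 30177 probe sets for 16 arrays, with RMA as the tool named in the submitters' processing notes. RMA makes the arrays' distributions alike, so shifts in total RNA content cannot be seen; version and arrays normalized together: not given in the sources used here. Groups and replicate numbers came from the titles. The values were used as deposited. Of the probe sets 21789 carried 1 gene symbol, 1621 several and 6767 none; the last kinds were left out. For 999 of 19938 genes with several probe sets the brightest on average stood for the gene. The test took the 11634 genes with a signal over the median of the array on 2 or more arrays.

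Differences were fitted with limma 3.58.1 (lmFit, eBayes) in R 4.3.3 as group means over all 16 arrays, with 9 residual and 6.61 prior degrees of freedom, and called at a Benjamini-Hochberg adjusted p under 0.05 over 11634 genes. The genotype comparison is the KO minus the WT response. Errors are limma's standard errors (SE). The fit was tested on simulated data for the WT comparison, in 20 runs with 200 of 11634 genes changed: 42.6% of the 1.5-fold and 94.8% of the 2-fold changes were found, and 5.6% of calls were false. With so few changed genes the adjusted threshold is stricter than with the 4788 genes called in the data. The shares found in the simulation therefore do not carry over to this comparison. Named genes are members of the gene lists, the 20 largest rises and falls without overlap between arrays, and the 8 largest differences between genotypes in each direction, predicted and numbered symbols left out. The members and the lists were chosen with earlier results of these data known. Promoter windows are RefSeq's for GRCm38.p6; 9352 tested genes had 1. The labels do not say that replicate numbers pair samples. Deviations of same-numbered and other arrays from their group means correlated at -0.07 to 0.07. With 2 IL-4c arrays the deviations mirror each other, so these values cannot exclude pairing. Alternatives comprised other scalings and filters, averaged probe sets, a robust intensity-dependent variance, subsets of arrays, array weights, a replicate block, and dropping each array in turn, where a lone array is assumed to vary like the other groups.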

Additional observations from a re-analysis of the deposited data

Results flagged for a closer look

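The response to IL-4c differed between wild-type and Bhlhe40KO macrophages, by a test of the difference itself, in 64 genes. The KO minus WT response was higher in Plac8 (4.92), Tnxb (2.64), Hcar2 (2.45), Neurl3 (2.45), Hgf (2.24), Itga9 (1.94), Csf3r (1.92), Rassf2 (1.85), Dusp1 (1.33), Ier3 (1.33), Jun (1.3), Zfp36 (1.15), Nfkbiz (1.13) and Mgst1 (0.97). It was lower in Ly6a2 (-4.2), Timd2 (-2.97), Mall (-2.72), Parm1 (-2.19), Cd300lf (-1.48), Arg1 (-1.43), Ercc6l (-1.42), Irs1 (-1.42), Ccne1 (-1.24), Orc1 (-1.13) and E2f7 (-1.2). These are log2 values, with 3 naive and 2 IL-4c arrays in each genotype. On the LPM arrays alone 7 of these genes lost the call (limma adjusted p = 0.059 to 0.075). More lost it when 1 array was left out, as given above. For Arg1 the genotypes differed on the naive arrays and met on the IL-4c arrays. Groups of this size were not searched for single outlying arrays.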

How the results depend on the processing

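The count of 4788 genes in wild type stayed within 1.5 times under each alternative that kept its threshold, from 4525 with a replicate block to 5313 with array weights; asking for at least 2-fold left 1264. Leaving out 1 array gave 3487 to 4312 genes. Centring on the median of the tested genes, an alternative chosen after seeing the data, turned the share of higher calls from 53.5% to 44.2% and moved the median difference of all tested genes to -0.06, so small differences near 0 depend on the scaling. The replicate block gave 64 genes for the difference between genotypes, as many as without it. That count was 109 with an intensity trend and robust variance and 38 on the LPM arrays alone, and ranged from 20 to 124 when 1 array was left out; the cause was not tested. Of 257 genes named and called in wild type, 221 kept their call under every alternative other than the 2-fold one and 36 lost it at least once, and 0 reversed. Irs1, counted among the 221, was not tested with averaged probe sets. Of the list counts of 4 or more, 13 of 46 moved by over 1.5 times with 1 array left out, as did 15 of 33 counts of 1 to 3, so the small counts are not firm. How often changes of 1.5-fold were missed was not measured, since the simulation changed far fewer genes than the 4788 called here.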
